A study of Homo sapiens with 6 samples.

Results

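The nuclear subunits of the mitochondrial respiratory chain were followed by RNA-seq in the human ovarian cancer line A2780, with 3 libraries labelled GPT2si and 3 labelled GPT2sinc. They are the protein-coding genes whose symbols mark them as structural subunits of complex I, III or IV or of the ATP synthase (complex V): the NDUFA, NDUFB, NDUFC, NDUFS, NDUFV, UQCR, COX4 to COX8, ATP5F1, ATP5M and ATP5P genes and CYC1, without the NDUFAF genes and NDUFA4L2. The rule took 85 of the 60564 rows of the count table, of which 2 are readthrough loci (NDUFC2-KCTD14 and ATP5MF-PTCD1, annotated across a subunit gene and its neighbour) that are given apart. The other 83 genes were 37 of complex I, 10 of complex III, 18 of complex IV and 18 of complex V. NDUFA4 was placed in complex IV, of which its product is a subunit despite the name. GPT2 encodes the mitochondrial alanine aminotransferase, and the series concerns cells deficient in it. All 6 libraries come from the same line, and no treatment, time or further allele is given for either group. The labels do not spell out si and sinc, and the sources used here do not say whether a group is 1 clone or several cultures. The p-values therefore reflect only how far these libraries differ, and that spread may be technical.

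The respiratory chain passes electrons from NADH through complex I to ubiquinone, from ubiquinol through complex III to cytochrome c, and from cytochrome c through complex IV to oxygen, and the proton gradient built on the way drives the ATP synthase. Most subunits are encoded in the nucleus and imported, while a few hydrophobic core subunits of each of these complexes are encoded by mitochondrial DNA, so assembly needs both genomes. In tumour cells the chain also regenerates the oxidised cofactors on which aspartate and nucleotide synthesis depend, and several complex IV subunits exist as isoforms restricted to muscle, lung or testis.

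Of the 83 subunit genes, 77 passed the filter on low counts and were tested within a fit over all genes, and none passed an adjusted p of 0.05 (edgeR quasi-likelihood F test with Benjamini-Hochberg adjustment over 17006 genes), where 1.42% of all tested genes did. With other tools, 2 subunits (2.60%) passed by DESeq2, against 7.73% of genes with an adjusted p, and 0 by limma-voom. At an unadjusted p under 0.05, 13 subunits were higher in GPT2si, or 16.9% against 10.3% of all tested genes, and 2 were lower, or 2.60% against 9.27% (NDUFB8 and COX6B2). The 3 GPT2si libraries lay wholly above the 3 GPT2sinc libraries for 13 subunits, against 14.9% of all tested genes, and wholly below for the same 2, against 13.2%. The fitted log2 fold change was positive for 69 subunits and negative for 8, with a median of 0.12 beside −0.01 over all tested genes. Over all 17006 tested genes it was positive for 8161 and negative for 8845. The 95% interval of the fold change lay inside a 1.5-fold change in either direction for 69 of the 77 and inside a 2-fold change for 76; the exception to the wider limit was COX6B2. The median was 0.04 without GPT2si 2, 0.06 without GPT2sinc 1 and −0.01 without both. These libraries were picked as the highest and the lowest for the subunits, so leaving them out moves the median down by construction. Without both, 7 subunits were higher at an unadjusted p under 0.05 (9.09%, against 12.6% of all tested genes) and 9 were lower (11.7%, against 12.1%).

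**Figure D1:**
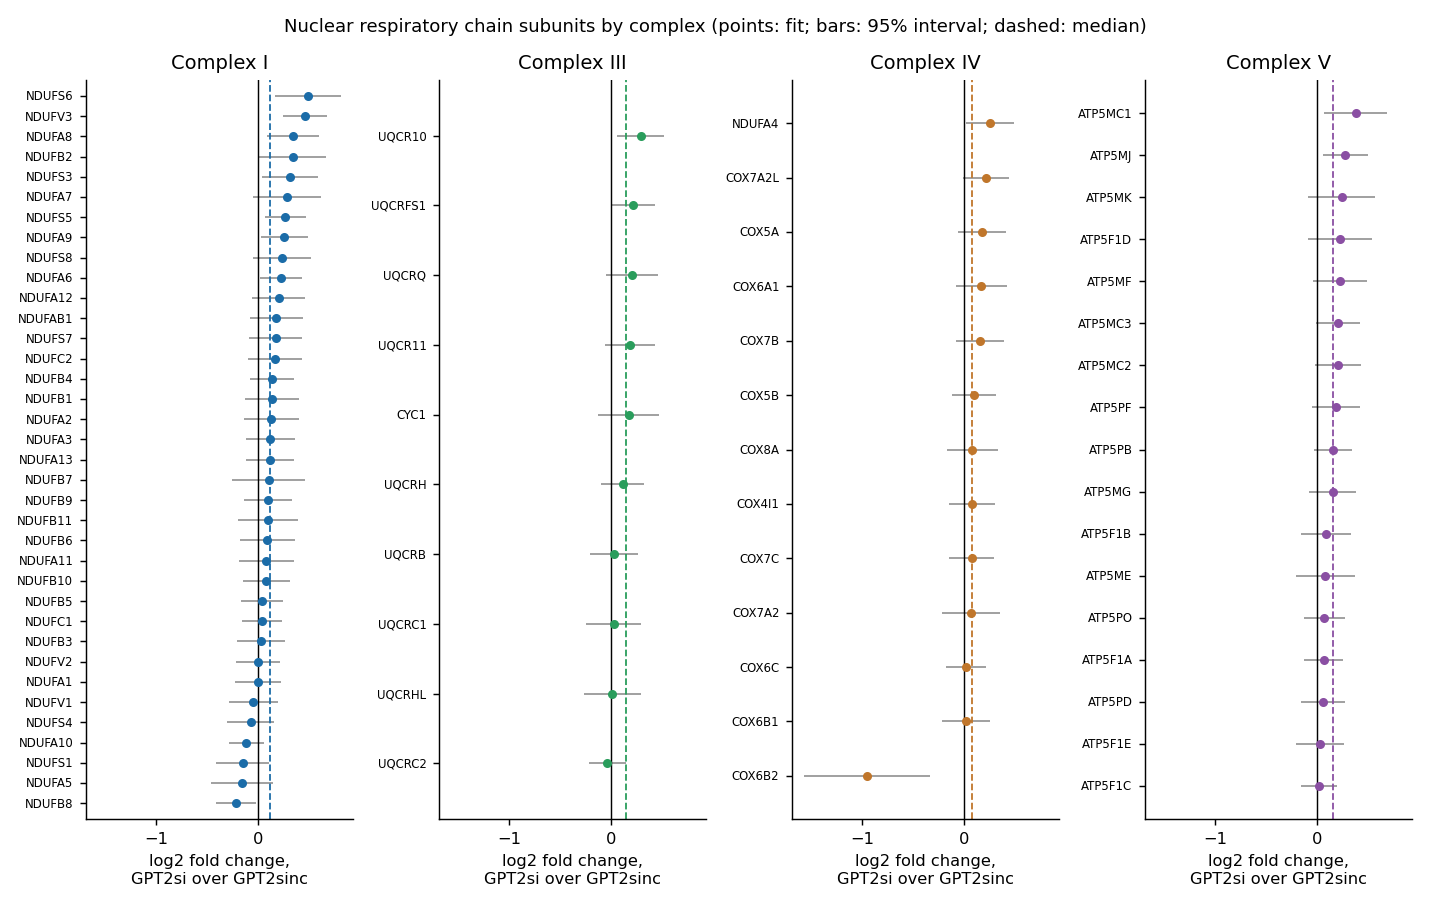
Fitted log2 fold changes of GPT2si over GPT2sinc (horizontal axis) for 76 of the 77 tested nuclear subunit genes (vertical axis), with 95% intervals as bars, by complex; the dashed lines are the medians over all tested genes of each complex, 0.12, 0.15, 0.08 and 0.16 for complexes I, III, IV and V. Most points lie a little right of 0, and COX6B2 stands alone at −0.95.

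Among the complex I genes, NDUFV3 and NDUFS6 passed the test as higher in GPT2si under more than 1 alternative fit. NDUFB8 passed as lower with offsets for GC content and transcript length. NDUFA8, NDUFS5 and NDUFS3 passed only with those offsets. NDUFB8 also passed without GPT2si 2 and GPT2sinc 1, and NDUFV1 and NDUFA10 passed only there. Those libraries were left out after the data were seen, so nothing is read from the calls without them. In the alternative fits where a subunit passed, 1.79% to 13.7% of all genes with an adjusted p did. The promoters of NDUFV3, NDUFS6 and NDUFB8 are shown here because known regulators of respiratory genes act at such sites. Each window holds 300 bases around an annotated start in RefSeq (GRCh38.p14), most of them upstream, 5′ to 3′ on the strand of the gene. NDUFV3 lies at chr21:42893059-42893358 on the plus strand, NDUFS6 at chr5:1801157-1801456 on the plus strand and NDUFB8, in 1 of its 2 windows, at chr10:100529822-100530121 on the minus strand. Capitals mark matches on either strand to CGCATGCG (the site of NRF1, nuclear respiratory factor 1), TGCGCA (part of longer NRF1 sites), CCGGAAG (bound by GABP and other ETS factors) or AAGATGGC (bound by YY1).
NDUFV3: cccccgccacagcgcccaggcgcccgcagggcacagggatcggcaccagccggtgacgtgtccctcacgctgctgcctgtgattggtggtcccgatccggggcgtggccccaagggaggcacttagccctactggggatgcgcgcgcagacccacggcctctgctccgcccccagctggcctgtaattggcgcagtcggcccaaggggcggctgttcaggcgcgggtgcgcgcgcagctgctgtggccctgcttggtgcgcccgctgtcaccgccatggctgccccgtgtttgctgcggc
NDUFS6: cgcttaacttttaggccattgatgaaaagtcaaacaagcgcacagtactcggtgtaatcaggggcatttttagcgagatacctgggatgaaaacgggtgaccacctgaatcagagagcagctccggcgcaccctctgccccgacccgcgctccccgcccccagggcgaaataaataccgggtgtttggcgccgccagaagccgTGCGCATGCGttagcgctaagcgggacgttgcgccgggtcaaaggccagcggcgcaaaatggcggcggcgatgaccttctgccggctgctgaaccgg
NDUFB8: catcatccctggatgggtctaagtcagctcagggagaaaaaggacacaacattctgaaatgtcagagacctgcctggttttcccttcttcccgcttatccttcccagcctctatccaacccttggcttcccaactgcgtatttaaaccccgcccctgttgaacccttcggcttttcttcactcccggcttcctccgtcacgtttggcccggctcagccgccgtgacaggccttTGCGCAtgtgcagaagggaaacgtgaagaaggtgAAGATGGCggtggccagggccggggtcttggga
The NDUFS6 window holds CGCATGCG and TGCGCA in overlap, the NDUFB8 window holds TGCGCA and AAGATGGC apart, and the NDUFV3 window holds none of the 4 motifs. Promoters were matched for 67 of the 83 subunit genes. CGCATGCG occurred in 10 of these (14.9%), against 3.28% of 15843 protein-coding genes, and TGCGCA in 18 (26.9%), against 12.7%. AAGATGGC occurred in 11 (16.4%), against 4.67% of those genes, and CCGGAAG in 19 (28.4%), against 16.5%. The share of subunit promoters with CGCATGCG was 15.6% in complex I, 0 of 7 in complex III, 6.67% in complex IV and 30.8% in complex V. The median log2 fold change was 0.17 over the 10 tested genes with CGCATGCG and 0.11 over the 54 without it, and 0.16 over the 11 with AAGATGGC and 0.12 over the 53 without it. For TGCGCA the medians were 0.17 over 17 genes with it and 0.11 over 47 without it. For CCGGAAG the order was the other way, 0.11 over 19 genes with it and 0.14 over 45 without it. The core of the hypoxia response element, ACGTG (not in capitals above), occurred in 17 subunit promoters (25.4%, against 28.5% of all), those of NDUFV3 and NDUFB8 among them, with medians of 0.18 over 17 genes with it and 0.11 over 47 without it. These medians were not tested against each other. A match describes the letters of the window and does not show binding.

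The libraries did not carry these genes evenly, and this bears on every value that follows. Log2 CPM (a share of the library's counts scaled by TMM factors, not per length) were centred on each gene's mean over the 6 libraries. The median of the 77 subunits was then 0.02, 0.22 and −0.03 in GPT2si 1, 2 and 3, against −0.21, −0.04 and 0.03 in GPT2sinc 1, 2 and 3. GPT2si 2 was the highest library for 60 subunits (77.9%, against 30.6% of all tested genes), and GPT2sinc 1 was the lowest for 64 (83.1%, against 27.1%). Both held for 53 subunits. All 4 complexes had the same pattern: in GPT2si 2 the centred medians were 0.21, 0.22, 0.22 and 0.25 for complexes I, III, IV and V, and in GPT2sinc 1 they were −0.19, −0.23, −0.18 and −0.22. In the other libraries the medians of the complexes lay between −0.06 and 0.05. Over all tested genes the centred median was −0.02 in GPT2si 2 and 0.01 in GPT2sinc 1.

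**Figure D2:**
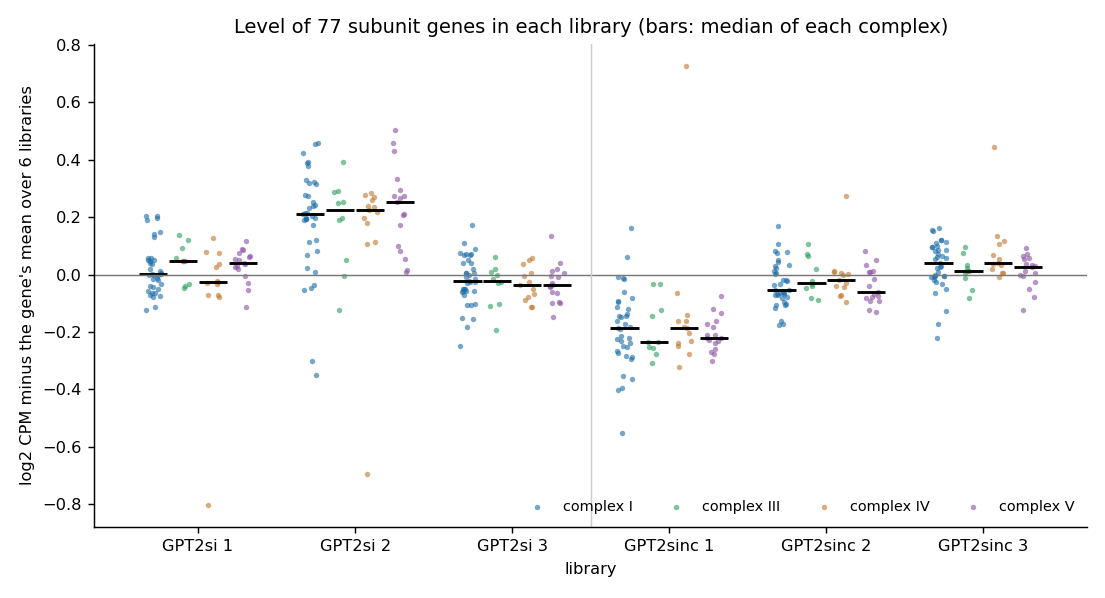
Log2 CPM of each of the 77 tested subunit genes minus its mean over the 6 libraries (vertical axis), by library (horizontal axis) and complex (colour); black bars are the medians of each complex. The bars of GPT2si 2 sit between 0.21 and 0.25 and those of GPT2sinc 1 between −0.23 and −0.18, while the other libraries lie near 0.

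GPT2si 2 also differed from the other libraries in how its levels followed base composition. Over 16825 tested genes its centred level correlated with transcript GC content at Pearson r = 0.44 (Spearman rho 0.54), and over the 77 subunits at r = 0.35 (rho 0.45); the points share a library, so these are descriptions. Over all tested genes the other 5 libraries ranged from r = −0.24 to 0.02. For GPT2sinc 1 the same r was −0.22 over all tested genes and 0.03 over the subunits. Over the subunits it was −0.33 in both GPT2si 1 and GPT2si 3, −0.08 in GPT2sinc 2 and 0.02 in GPT2sinc 3. With log2 transcript length GPT2si 2 had r = −0.21 over all tested genes and −0.31 over the subunits. Subunit transcripts were short, with a median of 1039 bases against 2747 bases over all tested genes, and their median GC content was 48.2% against 49.98%. With offsets for GC content and transcript length in the fit, the subunit median was 0.14 beside 0.02 over all tested genes, and 9 subunits passed the adjusted threshold, where 13.7% of all tested genes did: NDUFV3, NDUFS6, NDUFA8, NDUFS5, NDUFS3, UQCR10, ATP5MC1 and ATP5MJ higher and NDUFB8 lower. The part of base composition in the subunit values was not otherwise tested.

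Total counts ran from 41931162 to 50882329 in GPT2si and from 43351984 to 45508530 in GPT2sinc, and 3 counts equal 0.0597 to 0.0770 CPM on the TMM-scaled values used here. The subunits took 1.10%, 1.15% and 1.07% of the counts in GPT2si 1, 2 and 3, against 1.01%, 1.10% and 1.12% in GPT2sinc 1, 2 and 3. GPT2 itself had 93.8, 94.3 and 96.9 CPM in the GPT2si libraries, against 236, 230 and 219 CPM in the GPT2sinc libraries (log2 fold change −1.26, SE 0.08, edgeR adjusted p = 0.000393). The epithelial keratins KRT8 and KRT18 averaged 38.4 and 31.2 CPM in GPT2si, against 31.8 and 24.7 CPM in GPT2sinc. EPCAM averaged 1.61 CPM in GPT2si and 1.94 CPM in GPT2sinc, and PAX8, a marker of many ovarian carcinomas, only 0.195 and 0.176 CPM. The leukocyte marker PTPRC and the endothelial marker PECAM1 had at most 8 counts in any library, while the collagen gene COL1A1, used as a fibroblast marker, averaged 126 CPM in GPT2si and 119 CPM in GPT2sinc. DCN, the other fibroblast marker, averaged only 3.96 CPM in GPT2si and 3.90 CPM in GPT2sinc. In bulk RNA, fewer cells and less RNA per cell cannot be told apart.

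Complex I oxidises NADH at the tip of its matrix arm and reduces ubiquinone where that arm meets the membrane. Of its 37 nuclear genes, all tested, 8 stood above GPT2sinc and 1 below it with an unadjusted p under 0.05 (10.3% and 9.27% of all tested genes did), and the median log2 fold change was 0.12. The summed level of these genes was 3180, 3589 and 3072 CPM in GPT2si 1, 2 and 3, against 2796, 3116 and 3254 CPM in GPT2sinc 1, 2 and 3. The groups overlapped in this sum.

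The 7 nuclear core subunits, which hold the flavin and the iron-sulfur clusters or line the quinone site, had log2 fold changes from −0.15 to 0.31. NDUFS1, the large iron-sulfur subunit, stood at the low end with 111, 89.9 and 116 CPM in GPT2si, against 104, 125 and 123 CPM in GPT2sinc, and the groups overlapped. NDUFS3, of the quinone-reducing module, stood at the high end with 97.3, 122 and 96.6 CPM in GPT2si, against 73.4, 87.1 and 93.2 CPM in GPT2sinc (log2 fold change 0.31, SE 0.12, edgeR adjusted p = 0.204). All 3 GPT2si libraries of NDUFS3 were above all 3 GPT2sinc libraries; the gene PTPMT1 overlaps it on the same strand, so a part of its counts is uncertain.

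NDUFV1, which binds the flavin that accepts electrons from NADH, had 240, 296 and 233 CPM in GPT2si, against 243, 274 and 278 CPM in GPT2sinc (log2 fold change −0.05, SE 0.11). The groups overlapped, and GPT2si 2 was the highest library.

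The 30 accessory subunits of complex I spread wider, from −0.22 to 0.50, around a median of 0.12. NDUFV3, a small subunit beside the flavin-binding ones, had 66.7, 72.3 and 65.1 CPM in GPT2si (68.0 ± 3.80, SD, n = 3), against 44.9, 51.7 and 51.3 CPM in GPT2sinc (49.3 ± 3.81, SD, n = 3). The lowest GPT2si library was above the highest GPT2sinc library. Its log2 fold change was 0.47 (SE 0.10, 95% interval 0.25 to 0.68), with the smallest p among the subunits (edgeR adjusted p = 0.0548).

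The NDUFV3 value (ENSG00000160194; chr21:42879644-42913304, plus strand, GRCh38, GENCODE 29) stayed between 0.35 and 0.51 over the alternatives, with adjusted p from 0.0019 to 0.268. It passed with the DESeq2 Wald test (adjusted p = 0.0019), where 7.73% of genes with an adjusted p did. It also passed without GPT2si 2 and GPT2sinc 1 (log2 fold change 0.35, edgeR adjusted p = 0.00881), where 9.19% of tested genes did. Those libraries were left out after the data were seen, and the SE was 0.06 there against 0.10 with all 6 libraries. Nothing is therefore read from that call.

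NDUFS6, a zinc-binding subunit needed late in the assembly of the matrix arm, had 57.6, 69.5 and 54.5 CPM in GPT2si (60.6 ± 7.91, SD, n = 3), against 34.5, 47.9 and 46.3 CPM in GPT2sinc (42.9 ± 7.32, SD, n = 3). The groups did not overlap, but the outer libraries were again GPT2si 2 and GPT2sinc 1. The log2 fold change was 0.50 (SE 0.14, edgeR adjusted p = 0.116; 0.0215 to 0.394 over the alternatives), and without those 2 libraries it was 0.24 (adjusted p = 0.0505). NDUFS6 (ENSG00000145494; chr5:1801400-1816605, plus strand) was the other subunit to pass with DESeq2 (adjusted p = 0.0257).

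NDUFA8 and NDUFS5 face the intermembrane space and are folded by disulfide bonds. NDUFA8 had 72.5, 76.2 and 65.1 CPM in GPT2si, against 47.9, 59.9 and 60.1 CPM in GPT2sinc (log2 fold change 0.35, SE 0.11, edgeR adjusted p = 0.145). NDUFS5 had 201, 209 and 193 CPM in GPT2si, against 149, 170 and 180 CPM in GPT2sinc (0.27, SE 0.09, adjusted p = 0.152). Neither gene had overlapping groups, and neither passed the adjusted threshold. The groups were also apart for NDUFA6, and for NDUFA9, which stabilises the junction of the arms (log2 fold change 0.26, SE 0.10, edgeR adjusted p = 0.201) and shares its strand with an overlapping locus that had 551 counts summed over the GPT2si libraries and 1 over the GPT2sinc libraries.

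NDUFB8 went the other way. This subunit of the membrane arm, often used as a marker of assembled complex I, had 155, 156 and 135 CPM in GPT2si (149 ± 12.1, SD, n = 3), against 167, 172 and 179 CPM in GPT2sinc (173 ± 6.11, SD, n = 3). Every GPT2si library was below every GPT2sinc library, and GPT2sinc 1, the lowest library for most subunits, was not low enough to overlap. The log2 fold change was −0.22 (SE 0.09, edgeR adjusted p = 0.216; 0.0256 to 0.472 over the alternatives).

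NDUFB8 (ENSG00000166136; chr10:100523740-100530000, minus strand) passed as lower with the GC and length offsets (log2 fold change −0.25, edgeR adjusted p = 0.0256). A protein-coding locus on its strand overlaps it, with 742 counts summed over GPT2si and 701 over GPT2sinc. NDUFA10, a membrane arm subunit related to nucleoside kinases, had 153, 162 and 149 CPM in GPT2si, against 159, 170 and 172 CPM in GPT2sinc (log2 fold change −0.11, SE 0.08, edgeR adjusted p = 0.462), with overlapping groups.

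**Figure D3:**
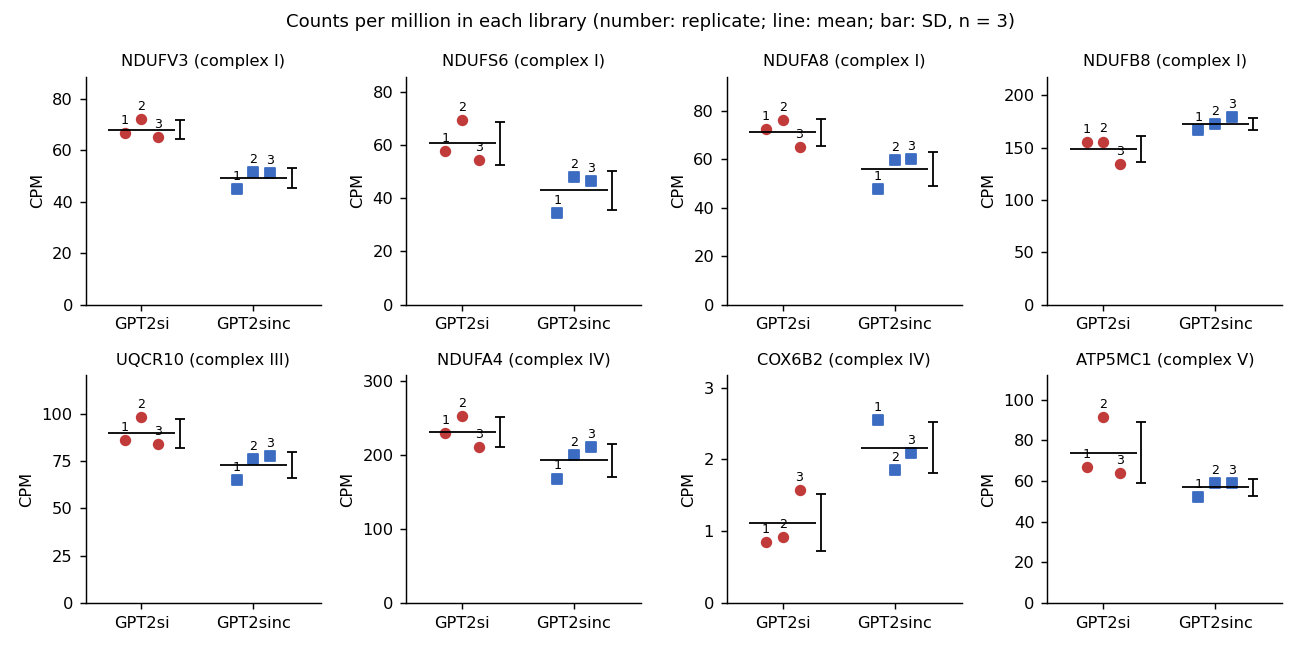
CPM (vertical axis, from 0) in each library of 8 subunit genes, GPT2si as circles and GPT2sinc as squares with the replicate number above each point; lines are means and bars SD (n = 3). The groups do not overlap for NDUFV3, NDUFS6, NDUFA8, NDUFB8, UQCR10, COX6B2 and ATP5MC1, and they overlap narrowly for NDUFA4. The 8 genes are among those named for a small p or for passing an alternative fit. Of the 77 tested subunits, GPT2si lay wholly above for 16.9% and wholly below for 2.60%, against 14.9% and 13.2% of all tested genes.

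Complex III moves electrons through cytochrome b, which is mitochondrially encoded, to the Rieske protein and cytochrome c1. Its 10 nuclear genes had a median log2 fold change of 0.15 and ran from −0.04 to 0.29; 2 were higher at an unadjusted p under 0.05, where 10.3% of all tested genes were. UQCR10, a small subunit near cytochrome c1, had 86.1, 98.5 and 84.2 CPM in GPT2si, against 65.2, 76.3 and 77.7 CPM in GPT2sinc (0.29, SE 0.10, edgeR adjusted p = 0.165). It was the only complex III gene whose groups did not overlap, where GPT2si lay wholly above for 14.9% of all tested genes.

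UQCRFS1, the Rieske iron-sulfur protein, had 129, 134 and 117 CPM in GPT2si, against 97.8, 110 and 118 CPM in GPT2sinc (0.22, SE 0.10, edgeR adjusted p = 0.248). CYC1, cytochrome c1, had 243, 330 and 234 CPM in GPT2si, against 213, 244 and 257 CPM in GPT2sinc (0.18, SE 0.14). CYC1 was highest in GPT2si 2, and its value was −0.01 without that library. The 2 core proteins stayed closest to 0: UQCRC1 had a log2 fold change of 0.03 (SE 0.12) and UQCRC2 one of −0.04 (SE 0.08), and the sign of each changed under some alternatives.

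The 6 small subunits of complex III ranged from 0.02 to 0.29. UQCRQ and UQCR11 had log2 fold changes of 0.21 (SE 0.11, edgeR adjusted p = 0.344) and 0.19 (SE 0.11, adjusted p = 0.371). UQCRH and its near-identical copy UQCRHL stood at 0.12 and 0.02; reads can be split between these copies, so both values are uncertain.

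Complex IV passes electrons from cytochrome c to oxygen on mitochondrially encoded subunits that the nuclear ones surround. All 11 ubiquitous nuclear subunits had positive log2 fold changes, from 0.02 for COX6B1 to 0.26 for NDUFA4, with a median of 0.08. The groups overlapped for each of them, where GPT2si lay wholly above for 14.9% of all tested genes and wholly below for 13.2%. NDUFA4, the most loosely attached subunit, had 229, 252 and 211 CPM in GPT2si, against 168, 199 and 211 CPM in GPT2sinc (0.26, SE 0.11, edgeR adjusted p = 0.227). COX5A, which like COX4I1 is an early-assembling subunit, stood at 0.18 (SE 0.10, edgeR adjusted p = 0.378).

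COX4I1 had 386, 458 and 369 CPM in GPT2si, against 351, 393 and 403 CPM in GPT2sinc (log2 fold change 0.08, SE 0.10). Its 2 outer libraries were again GPT2si 2 and GPT2sinc 1. COX7A2L, which helps to join complexes III and IV in supercomplexes, had 182, 200 and 177 CPM in GPT2si, against 142, 161 and 177 CPM in GPT2sinc (0.22, SE 0.10, edgeR adjusted p = 0.261). Leaving out GPT2si 2 and GPT2sinc 1 moves most values down by construction. Without them 3 of the 13 tested complex IV genes had a positive value: NDUFA4, COX7A2L and COX5A.

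The tissue-restricted isoforms were near or at 0, with 1 exception. COX6A2 and COX7A1 (heart and skeletal muscle) and COX7B2 (testis) had 0 counts in all 6 libraries, which allows up to 0.0770 CPM in a library. COX4I2, the lung isoform of subunit 4, had 0 counts in each GPT2si library and 0, 2 and 0 in the GPT2sinc libraries. COX8C, of testis, had 0, 6 and 4 counts in GPT2si and 3, 0 and 0 in GPT2sinc. Their ubiquitous partners COX6A1, COX7A2, COX7B and COX8A had log2 fold changes of 0.17, 0.07, 0.16 and 0.08 (SE 0.11 to 0.13), each with overlapping groups.

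COX6B2, the testis isoform of subunit 6B, was detected in every library at 43, 36 and 72 counts in GPT2si, against 117, 86 and 91 counts in GPT2sinc. These counts equal 0.855, 0.924 and 1.58 CPM in GPT2si, against 2.55, 1.85 and 2.09 CPM in GPT2sinc, and the groups did not overlap. The log2 fold change was −0.95 (SE 0.28, 95% interval −1.57 to −0.33, edgeR adjusted p = 0.116; 0.0502 to 0.381 over the alternatives), lower than for any other tested subunit. Its ubiquitous partner COX6B1 had 173, 201 and 164 CPM in GPT2si, against 158, 179 and 192 CPM in GPT2sinc (0.02, SE 0.11). An overlapping locus on the COX6B2 strand had 13 counts summed over GPT2si and 39 over GPT2sinc, and the difference between the 2 isoforms was not tested.

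Complex V, the ATP synthase, turns the proton gradient into ATP through a rotating ring of c subunits and a catalytic head. All 17 tested genes had positive log2 fold changes, from 0.02 to 0.38 with a median of 0.16. Without GPT2si 2 and GPT2sinc 1, a choice that moves most values down by construction, 9 of the 17 were positive (median 0.01). The signs are not 17 separate observations, as all of these genes lay above their mean in GPT2si 2 and below it in GPT2sinc 1. Their summed level was 4592, 5041 and 4355 CPM in GPT2si 1, 2 and 3, against 3878, 4409 and 4594 CPM in GPT2sinc 1, 2 and 3. The groups overlapped in this sum.

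The 3 c-ring genes, ATP5MC1, ATP5MC2 and ATP5MC3, encode precursors of the same mature subunit. In all 3 the GPT2si libraries lay wholly above the GPT2sinc libraries, as they did for 14.9% of all tested genes. The margin was small for ATP5MC2 and ATP5MC3. ATP5MC1 had 66.7, 91.4 and 64.0 CPM in GPT2si, against 52.2, 59.2 and 59.1 CPM in GPT2sinc (0.38, SE 0.14, edgeR adjusted p = 0.181; 0.19 without GPT2si 2). ATP5MC2 had 293, 350 and 292 CPM in GPT2si, against 246, 274 and 290 CPM in GPT2sinc (0.21, SE 0.10, adjusted p = 0.293). ATP5MC3 stood at 0.21 as well (SE 0.10, adjusted p = 0.270).

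The head and central stalk of the ATP synthase were nearer to 0, with a median of 0.07 over their 5 genes. ATP5F1B, the catalytic beta subunit, had 1506, 1710 and 1384 CPM in GPT2si, against 1270, 1491 and 1554 CPM in GPT2sinc (0.09, SE 0.11). ATP5F1A, the alpha subunit, stood at 0.07 (SE 0.09) and ATP5F1C, of the central stalk, at 0.02 (SE 0.08). The highest of the 5 was ATP5F1D at 0.23 (SE 0.14), which had 119 CPM in GPT2si 2 and 77.4 to 84.4 CPM in the other 5 libraries.

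The 4 peripheral stalk genes, whose products hold the head still, ranged from 0.06 for ATP5PD to 0.19 for ATP5PF. The groups were apart for ATP5PB only (0.16, SE 0.08, edgeR adjusted p = 0.323), where GPT2si lay wholly above for 14.9% of all tested genes. The 5 tested small membrane subunits ranged from 0.08 for ATP5ME to 0.28 for ATP5MJ. ATP5MJ had 81.6, 94.3 and 79.2 CPM in GPT2si, against 65.2, 70.2 and 74.4 CPM in GPT2sinc (SE 0.10, edgeR adjusted p = 0.166), without overlap. ATP5MGL, a copy of ATP5MG, had at most 2 counts in a library and was not tested. Differences between the complexes or between their parts were not tested.

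The 2 readthrough loci share reads with the subunit genes they span and with their neighbours. NDUFC2-KCTD14 had 4.42, 12.3 and 8.43 CPM in GPT2si, against 4.49, 7.00 and 4.71 CPM in GPT2sinc (0.63, SE 0.33, edgeR adjusted p = 0.321). ATP5MF-PTCD1 had 0, 13 and 235 counts in GPT2si, against 2, 2 and 0 in GPT2sinc, and was not tested. Its high value came from GPT2si 3 alone, and the subunit ATP5MF itself stood at 0.23 (SE 0.12).

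**Figure D4:**
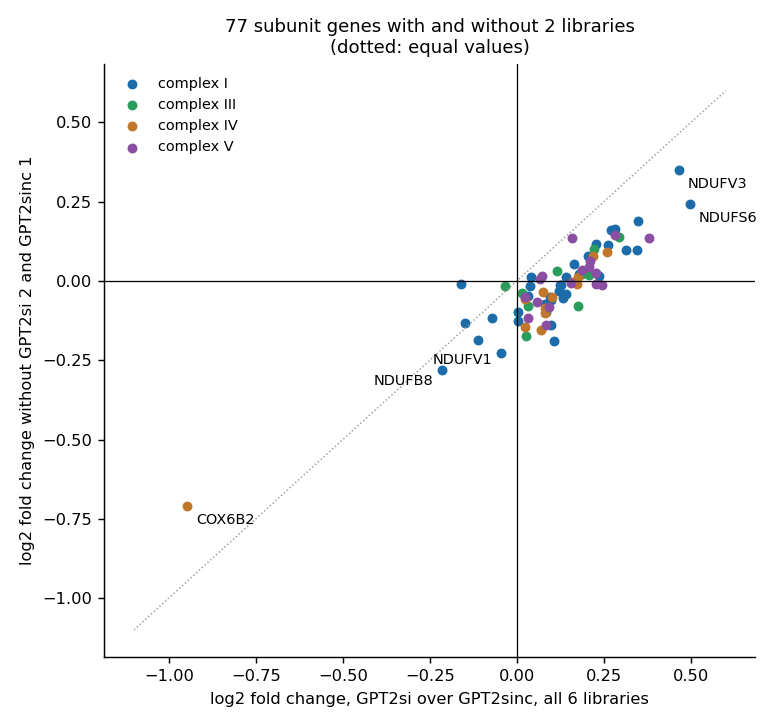
Log2 fold change of GPT2si over GPT2sinc for the 77 tested subunits with all 6 libraries (horizontal axis) and without GPT2si 2 and GPT2sinc 1 (vertical axis); the dotted line marks equal values. Of the 77 points, 33 lie above 0 on the vertical axis and 44 below, against 69 and 8 on the horizontal one, and NDUFV3 and NDUFS6 remain the 2 highest. The 2 libraries were chosen as extremes, so leaving them out moves most values down by construction.

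The comparison without GPT2si 2 and GPT2sinc 1 was added because these libraries were the extremes for the subunits. For genes that are highest in GPT2si 2 within GPT2si and lowest in GPT2sinc 1 within GPT2sinc, leaving these out moves the value down by construction. Not every subunit had that order, and some negative values, that of COX6B2 among them, moved towards 0. The comparison thus describes the values in the remaining libraries. It cannot show what the differences rest on, because the libraries left out were chosen for their extreme values. In it 33 of the 77 subunits had positive values, among them 16 of 37 in complex I, 5 of 10 in complex III, 3 of 13 in complex IV and 9 of 17 in complex V. The median was −0.01 for complex I, 0.0009 for complex III, −0.05 for complex IV and 0.01 for complex V. NDUFV3 was the only subunit that passed as higher, and this call too depends on libraries chosen after the data were seen. The 3 that passed as lower, NDUFB8 (−0.28), NDUFV1 (−0.23) and NDUFA10 (−0.19), where 9.19% of tested genes passed in either direction, had their values made more negative by the choice of libraries, and nothing is read from those calls; with all 6 libraries they stood at −0.22, −0.05 and −0.11.

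Of the genes that build, regulate or complete the complexes, 2 passed the test among the 93 tested of 94 in 8 lists, where 1.42% of all tested genes passed. NDUFA4L2, a paralogue of NDUFA4 known as a hypoxia-induced gene, fell: it had 13.4, 14.7 and 15.1 CPM in GPT2si, against 21.8, 23.4 and 24.1 CPM in GPT2sinc (log2 fold change −0.68, SE 0.11, edgeR adjusted p = 0.0251). PPRC1, a coactivator related to PGC-1alpha that acts with NRF1, rose: it had 81.5, 105 and 82.4 CPM in GPT2si, against 46.0, 52.7 and 55.1 CPM in GPT2sinc (0.81, SE 0.12, adjusted p = 0.0230). The groups were far apart in both genes. Both calls were lost with no low-count filter (adjusted p = 0.0577 and 0.0602) and when any 1 of GPT2si 1, GPT2sinc 1, GPT2sinc 2 or GPT2sinc 3 was left out (adjusted p from 0.105 to 0.157 for NDUFA4L2 and from 0.0816 to 0.141 for PPRC1), with values of −0.72 to −0.64 and 0.74 to 0.87.

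None of the assembly factor lists held a gene past the test. The complex I factors had a median log2 fold change of 0.09 over 18 genes, with the smallest p for NDUFAF4 (0.63, SE 0.15, edgeR adjusted p = 0.0756) and NDUFAF8 (0.43, SE 0.13, adjusted p = 0.128). The complex III factors had a median of 0.17 over 9 genes, led by BCS1L, which inserts the Rieske protein (0.53, SE 0.13, adjusted p = 0.0849), and UQCC5 (0.29, SE 0.14, adjusted p = 0.299). The complex IV factors had a median of 0.10 over 25 genes, led by COA3 (0.50, SE 0.14, adjusted p = 0.107) and COA7 (0.34, SE 0.11, adjusted p = 0.127).

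The 8 genes of complex II and its assembly, which is wholly nuclear, had a median of 0.01, with SDHAF2 at 0.37 (SE 0.10, edgeR adjusted p = 0.106) and SDHAF4 at −0.44 (SE 0.13, adjusted p = 0.127). The 5 complex V factors had a median of 0.02, with TMEM70 at 0.30 (SE 0.12, adjusted p = 0.205) and the inhibitor ATP5IF1 at −0.14 (SE 0.08, adjusted p = 0.380). The cytochrome c and supercomplex genes (4, NDUFA4L2 among them) had a median of 0.03. The 11 tested regulators had a median of 0.21, and PPARGC1A was removed by the filter.

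The 13 mitochondrially encoded subunits, partners of the nuclear ones in complexes I, III, IV and V, had a median log2 fold change of 0.34, and none passed the adjusted threshold. Of the 13, 12 had positive values and 7 were higher at an unadjusted p under 0.05, where 10.3% of all tested genes were. GPT2si lay wholly above for 7, against 14.9% of all tested genes. All 13 lay above their mean in GPT2si 2 and below it in GPT2sinc 2, so they are not 13 separate observations. MT-ND2, of complex I, had 2343, 2886 and 2322 CPM in GPT2si, against 1964, 1543 and 1902 CPM in GPT2sinc (0.48, SE 0.12, edgeR adjusted p = 0.0851), without overlap. MT-CYB, the cytochrome b of complex III, stood at 0.42 (SE 0.13, adjusted p = 0.121). Their centred median was 0.06, 0.37 and 0.04 in GPT2si 1, 2 and 3, against −0.07, −0.40 and −0.05 in GPT2sinc 1, 2 and 3. GPT2si 2 was thus high for both genomes, whereas the lowest library was GPT2sinc 2 for the mitochondrial genes and GPT2sinc 1 for the nuclear ones. The libraries were selected for poly(A) tails, which mitochondrial transcripts carry in short form.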

How the data were processed

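RNA from A2780 cells was measured in 6 libraries, whose titles give their group and number. Per the labels' protocols, poly(A) RNA was selected with oligo(dT) beads and copied with dUTP so that strand was kept. The authors deposited raw counts for each Ensembl gene; the tools named, per the submitters' processing notes, are CASAVA and StringTie. The sources used here do not give the counting program, its strand setting or the genome build, so reads of overlapping genes may be shared.

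Groups were compared by edgeR 4.0.16 (R 4.3.3; glmQLFit and glmQLFTest) on these counts, with TMM factors, filterByExpr and the group as the only term; p-values were adjusted by Benjamini-Hochberg over 17006 genes at a threshold of 0.05. SE were derived from the F statistic and 95% intervals from its degrees of freedom. CPM values are scaled by TMM factors; log2 CPM used a prior count of 2. Reads were amplified by PCR without molecular identifiers and are not independent molecules, so the limit from 3 counts covers counting error only. Gene types, positions, transcript length and GC content came from GENCODE 29 on GRCh38 (1 transcript per gene), and promoters from RefSeq, where NDUFA4 has the symbol COXFA4; the motif scan counted a gene with a match in any of its windows. The fit was tested on simulated data. No 2 libraries of the same group agreed within sampling noise.

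The members, lists and named genes were chosen with earlier results of these data known. Named genes are, in each complex, the 4 with the smallest p and the 2 with the highest mean CPM, the ends of ranges, genes past the threshold in a main or alternative fit, isoforms with their partners, and from other lists those past the test or the 2 with the smallest p. NDUFA6, NDUFA9, NDUFA10, ATP5MF and ATP5PB were named after their values were seen, and 1 member is counted but not reported by name here. Alternatives were DESeq2 1.42.0 and its size factors, limma-voom (limma 3.58.1), upper-quartile factors, no low-count filter, at least 1 CPM in at least 3 libraries, a replicate block, each library left out, and loess offsets (span 0.5) on GC content and transcript length. Leaving out GPT2si 2 and GPT2sinc 1 together was chosen after seeing the data.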

Additional observations from a re-analysis of the deposited data

How the results depend on the processing

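No subunit passed with DESeq2 size factors, upper-quartile factors, no low-count filter or limma-voom. The count of higher subunits was 1 with the filter of 1 CPM (NDUFV3; 1.79% of all tested genes passed), 2 with the DESeq2 Wald test, 8 with GC and length offsets and 1 without GPT2si 2 and GPT2sinc 1; lower subunits numbered 1 with the offsets and 3 without those libraries, whose choice moves most values down by construction. Leaving out 1 library gave 0 to 1 higher (NDUFV3 without GPT2si 2, where 4.77% of tested genes passed) and 0 lower. With the replicate block 2 subunits passed as higher (NDUFV3 and NDUFS6), where 3.28% of all tested genes passed. Deviations from the group mean correlated at r = 0.09, 0.11 and −0.19 between same-numbered libraries. The labels name no pairing, and these few values can neither show nor exclude one, so whether the numbers pair the libraries is unknown.

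The subunit median ranged from 0.04 to 0.18 with 1 library left out (complex I 0.03 to 0.17, III 0.05 to 0.21, IV 0.01 to 0.15, V 0.07 to 0.21), and without GPT2si 2 and GPT2sinc 1 it was −0.013 (I −0.0131, III 0.0009, V 0.0071). In the other lists, where 1 gene rose and 1 fell, the counts were 0 and 0 with no filter, 11 and 2 with DESeq2, and 17 and 3 with the offsets. They were 8 and 3 without both libraries, and 0 to 4 and 0 to 2 with 1 library left out. With the block 3 rose. Over all genes with an adjusted p, 7.73% passed with DESeq2, 13.7% with the offsets, 9.19% without both libraries and 3.28% with the block.

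Without both libraries, 36 of the 77 subunits turned from positive to negative and 0 the other way. Among the genes named, the values were UQCRC1 −0.1747, CYC1 −0.0781, COX4I1 −0.0846, COX6A1 −0.0107, COX6B1 −0.1456, COX7A2 −0.1545, COX7B −0.003, COX8A −0.1014 and ATP5F1B −0.0826. With the offsets they were NDUFS1 0.0216, UQCRC1 −0.0101 and COX6B1 −0.0119, and with upper-quartile factors UQCRC1 −0.0188 and COX6B1 −0.0235. With 1 library left out, ranges crossed 0 for NDUFV1 (−0.1755 to 0.0196), UQCRC1 (−0.1164 to 0.1247), UQCRC2 (−0.0747 to 0.0016), CYC1 (−0.0112 to 0.268), COX4I1 (−0.0319 to 0.1435), COX6B1 (−0.079 to 0.0891), COX7A2 (−0.0784 to 0.1594), COX8A (−0.0577 to 0.1419) and ATP5F1B (−0.0059 to 0.1624). The causes of these shifts were not tested. COX6B2 had 36 to 117 counts a library, and every other tested subunit at least 381, so counting error weighs most on COX6B2.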
